A study of Homo sapiens with 6 samples.

Results

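Aminoacyl-tRNA synthetases are the enzymes that join each amino acid to its transfer RNA. They were examined after knockdown of VASP, an actin filament elongation factor, in MDA-MB-231, a cell line from a human breast cancer. The members are 36 genes named by symbol in the deposited count table of 61155 symbols, 20 of cytosolic synthetases, under older symbols such as SARS, and 16 of mitochondrial synthetases, whose symbols end in 2. All 36 symbols were found. The groups are 3 control libraries, titled plko and described as cells given a negative control siRNA, and 3 VASP knockdown libraries, titled shVASP and described as cells given a VASP siRNA. All were harvested at 48 hours. The titles name a hairpin vector and the protocol a transient transfection, and the labels do not settle which reagent was used. Nor do the labels name separate cultures, and the p-values reflect the spread between libraries alone, which may be technical. The headings of the 3 control columns each extend the title of the first control sample by a further number, so they may come from a single sample, and n = 3 for the controls rests on the 3 control samples of the labels. Counts of control libraries differed from each other by 5.94 to 8.80 times sampling noise (chi-square per degree of freedom over the genes tested) and those of knockdown libraries by 5.63 to 9.63 times.

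Cytosolic synthetases supply charged tRNA to the ribosomes of the cytoplasm, and a nuclear set of their own supplies mitochondrial translation. Glycyl- and lysyl-tRNA synthetase are made for both places from a single gene each, GARS and KARS. Several cytosolic enzymes sit together in the multisynthetase complex, held by the scaffold proteins AIMP1, AIMP2 and EEF1E1. By the fold of the catalytic domain, the enzymes fall into class I and class II. In many cell types a shortage of amino acids raises the mRNA of numerous cytosolic synthetases through the transcription factor ATF4, which binds composite C/EBP-ATF sites.

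Such a composite word lies in the promoters of several cytosolic members, and the sequences are given here because their carriers moved in different directions. RefSeq promoter windows on GRCh38.p14, from 250 bases before to 50 after an annotated start, were found for 16 cytosolic and 14 mitochondrial members. The word TGATGCAA, or TTGCATCA on the other strand, was in windows of 6 of the 16 cytosolic and 0 of the 14 mitochondrial members, and in 304 of all 35116 windows (0.866%). A member was counted if any of its windows, 1 or 2 each, held the word, whereas the share over all is per window. The stretches below run 5′ to 3′ on the strand of the gene, with the word in capitals. RefSeq lists these genes under the newer symbols AARS1, CARS1, IARS1, MARS1, NARS1 and TARS1.
TARS, chr5:33440956-33440985, plus strand: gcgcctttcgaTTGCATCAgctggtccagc
NARS, chr18:57621804-57621833, minus strand: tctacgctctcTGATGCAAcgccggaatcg
IARS, chr9:92293692-92293721, minus strand: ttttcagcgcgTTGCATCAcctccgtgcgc
AARS, chr16:70289675-70289704, minus strand: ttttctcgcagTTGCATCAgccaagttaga
MARS, chr12:57488053-57488082, plus strand: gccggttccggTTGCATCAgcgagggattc
CARS, chr11:3057407-3057436, minus strand: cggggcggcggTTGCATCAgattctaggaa
TARS, NARS and IARS rose in the knockdown, MARS and CARS fell, and AARS did not pass the test, as detailed further on. The word overlaps or lies within 14 bases of the annotated start in 5 of the 6 genes, and 187 bases upstream of it in AARS. With the free base allowed in TGATGNAA, on either strand, windows of GARS and YARS2 also matched, and 3.62% of all windows did. Every TGATGCAA match is also a TGATGNAA match. A match describes the letters and shows no binding.

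For the threonine enzyme, which rose, and the methionine enzyme, which fell, the whole windows show what surrounds the same word.
TARS, chr5:33440715-33441014, plus strand: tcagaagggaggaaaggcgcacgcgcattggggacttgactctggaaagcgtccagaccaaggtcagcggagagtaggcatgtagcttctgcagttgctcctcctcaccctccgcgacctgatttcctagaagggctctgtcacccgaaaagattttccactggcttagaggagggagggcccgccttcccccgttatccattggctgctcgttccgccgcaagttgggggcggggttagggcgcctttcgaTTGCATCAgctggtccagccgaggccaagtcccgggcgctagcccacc
MARS, chr12:57487818-57488117, plus strand: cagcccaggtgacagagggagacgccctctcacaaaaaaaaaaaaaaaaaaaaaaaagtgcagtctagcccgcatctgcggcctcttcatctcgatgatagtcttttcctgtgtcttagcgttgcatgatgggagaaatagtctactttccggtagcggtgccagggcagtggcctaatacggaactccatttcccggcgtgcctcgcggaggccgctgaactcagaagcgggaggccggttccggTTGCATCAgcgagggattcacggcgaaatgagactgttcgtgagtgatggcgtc

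The libraries held 28856610 to 30055503 counts, and 3 counts, the least read as detected, are worth 0.0998 to 0.104 CPM (counts scaled to library size). VASP itself (GRCh38 chromosome 19, 45506579 to 45526983, plus strand) stood at 156, 174 and 163 CPM in the control libraries and at 12.9, 12.8 and 12.3 CPM in the knockdown libraries (log2 fold change -3.69, SE 0.06, edgeR adjusted p = 8.3e-24). Of the line's defining markers VIM was at 1629 to 1736 CPM and CD44 at 536 to 593 CPM, whereas of those listed as low or absent CDH1 and PGR were at 0.103 CPM or less, ESR1 at 0.827 CPM or less and EPCAM at 4.76 to 6.63 CPM. ERBB2, on the same list, was at 94.0 to 108 CPM and was lower in the knockdown (edgeR adjusted p = 0.035). That call was lost by DESeq2 (adjusted p = 0.051) and with trends of GC content and exon length removed (edgeR adjusted p = 0.83). It was also lost without the filter, with library totals only, without control library 1 or 2 and without knockdown library 2 or 3. Of 9 markers of leukocytes, endothelium and fibroblasts, PTPRC, CD3E, CD68, CDH5, PDGFRA and DCN were at 0.241 CPM or less in every library, and CD14 was at 1.46 to 2.96, PECAM1 at 1.70 to 3.18 and COL1A1 at 5.56 to 6.47 CPM. Of 16633 genes that passed the filter on low counts, 37.2% passed the test at an adjusted p under 0.05, 18.9% higher and 18.3% lower in the knockdown, with a median log2 fold change of -0.01. ZEB1, a mesenchymal factor of the line, was at 42.4 to 49.6 CPM in control and 63.0 to 68.3 CPM in knockdown libraries, and PECAM1 at 2.62 to 3.18 and 1.70 to 2.30 CPM. CAV1 and AXL, also listed as high in the line, were lower in every knockdown library than in any control. CAV1 was at 361 to 376 CPM in control and 337 to 347 CPM in knockdown libraries, and AXL at 1871 to 1908 and 1731 to 1779 CPM. Of the 5 markers listed as high, 1 was called higher and 0 lower by edgeR, and 1 higher and 1 lower by DESeq2. The part of these markers in the results was not tested.

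Of the 36 synthetase genes, 33 passed the filter on low counts. VARS and SARS2 had a count of 0 in every library, and VARS2 had 1, 0 and 1 counts in the control and 0, 0 and 0 in the knockdown libraries. VARS (valine, cytosolic) lies in the annotation on chromosome 6 and 6 further patch or alternate sequences, VARS2 on chromosome 6 and 5 further sequences, and SARS2 (serine, mitochondrial) on chromosome 19 and 1 further sequence. CARS (cysteine, cytosolic) also has 1 further sequence and kept 1077 to 1609 counts. The counting command in the file header sets no option for fragments with several alignments, which the program by default leaves out. Among protein-coding symbols also placed on such sequences, 69.1% of 1120 had under 3 counts in every library, against 23.0% of 18612 on primary chromosomes alone. Whether this accounts for the missing values was not tested. No level is read from these 3 genes, and the count of CARS may cover part of its transcript.

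Most cytosolic synthetases that changed rose. Of 19 tested, 10 rose, 3 fell and 6 did not pass, that is 52.6% higher against 18.9% of all genes tested and 15.8% lower against 18.3%. The median log2 fold change of the 19 was 0.16. Of 14 mitochondrial synthetases tested, 3 rose, 1 fell and 10 did not pass, 21.4% higher and 7.14% lower, with a median of 0.01. With upper quartile scaling in place of TMM the mitochondrial split was 2 higher and 2 lower. These counts describe the lists, and the difference between the compartments was not tested. The changes called ran from 1.11-fold to 1.33-fold among the 13 cytosolic members. In bulk RNA, fewer cells with a transcript and less of it per cell cannot be told apart.

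**Figure D1:**
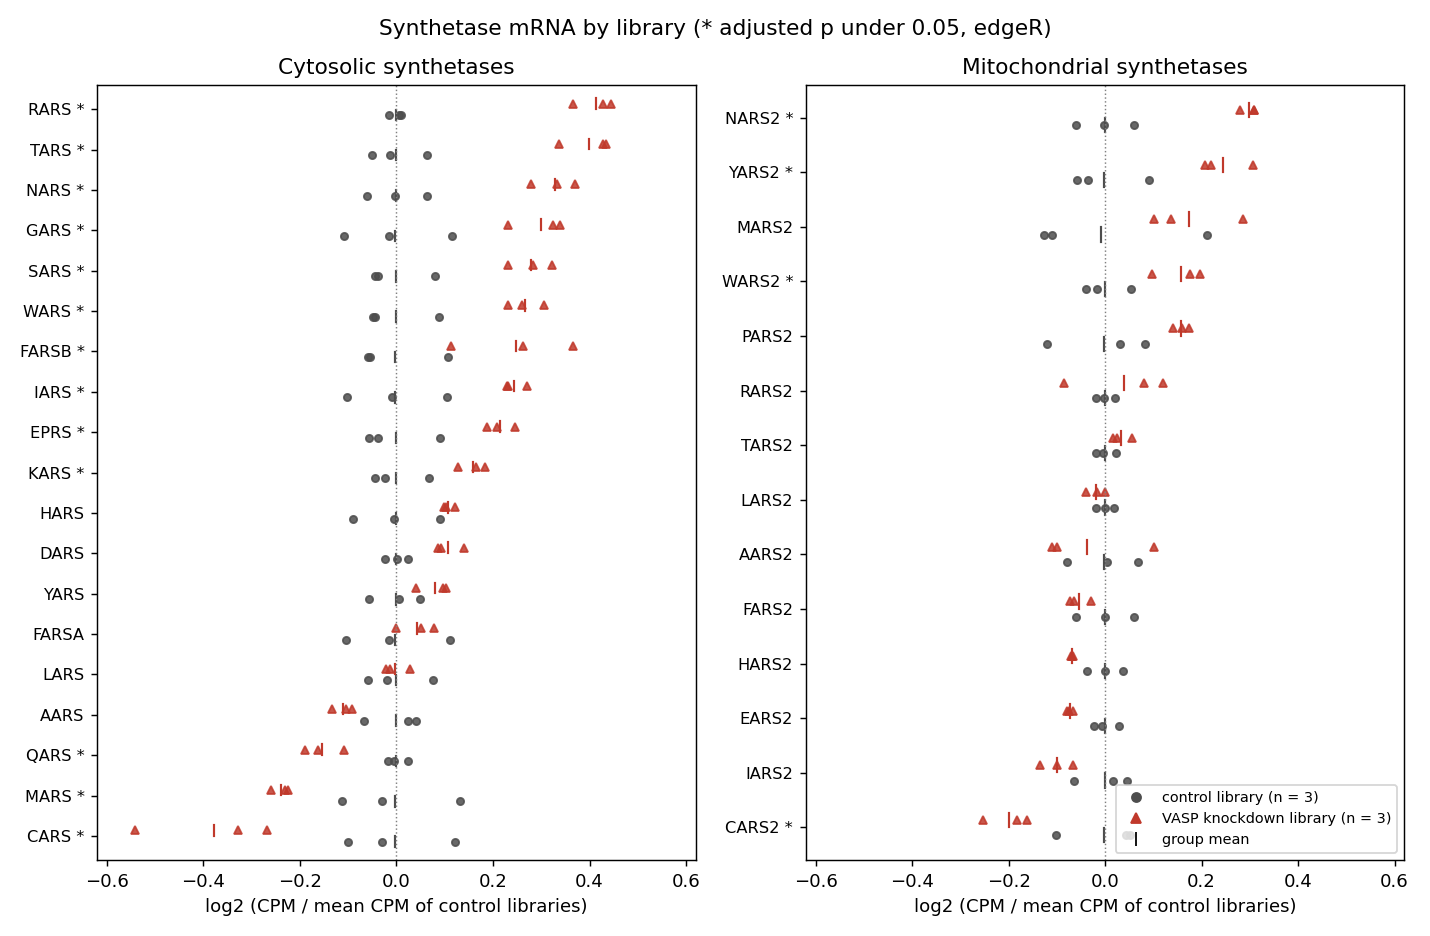
Each point is the CPM of a library divided by the mean CPM of the 3 control libraries, on a log2 scale (x axis), for the 19 cytosolic (left) and 14 mitochondrial (right) synthetases tested; grey circles are control libraries, red triangles knockdown libraries, short bars group means, and an asterisk marks an edgeR adjusted p under 0.05. Cytosolic genes run from RARS at 0.41 to CARS at -0.37 in log2 fold change, and most knockdown points of the left panel lie to the right of the control points.

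The largest increase was that of RARS, the arginine enzyme of the multisynthetase complex (chromosome 5, 168486451 to 168519301, plus strand). RARS stood at 101, 99.3 and 101 CPM in control and 129, 137 and 135 CPM in knockdown libraries. All 3 knockdown libraries were above all 3 controls, and the controls lay close together. The increase was 1.33-fold, from 100.3 ± 0.901 to 134 ± 3.78 CPM (SD, n = 3 each; log2 fold change 0.41, SE 0.05, edgeR adjusted p = 3.7e-07).

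TARS, the threonine enzyme (chromosome 5, 33440696 to 33469539, plus strand), had 328, 319 and 346 CPM in control and 418, 447 and 445 CPM in knockdown libraries. The groups did not overlap, and TARS rose 1.32-fold (log2 fold change 0.40, SE 0.05, edgeR adjusted p = 1.5e-06). When the null was a change of up to 1.2-fold, RARS and TARS were the members that still passed (edgeR adjusted p = 0.011 and 0.026). NARS, the asparagine enzyme (chromosome 18, 57600656 to 57622213, minus strand), went from 208, 200 and 218 CPM to 253, 269 and 262 CPM. NARS rose 1.26-fold, again with no overlap between the groups (log2 fold change 0.33, SE 0.05, edgeR adjusted p = 1.4e-05).

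Among the cytosolic enzymes that rose were the most abundant ones. GARS, for glycine in both compartments (chromosome 7, 30594838 to 30634033, plus strand), had 352, 330 and 385 CPM in control and 418, 450 and 445 CPM in knockdown libraries. It rose 1.23-fold (log2 fold change 0.30, SE 0.05, edgeR adjusted p = 0.00016). SARS, for serine (chromosome 1, 109213918 to 109238182, plus strand), had 353, 351 and 382 CPM in control and 425, 453 and 440 CPM in knockdown libraries. SARS rose 1.21-fold (log2 fold change 0.28, SE 0.05, edgeR adjusted p = 0.00012). WARS, the tryptophan enzyme, which interferon gamma is known to induce, went from 321, 320 and 352 CPM to 388, 409 and 396 CPM. WARS rose 1.203-fold, and in GARS, SARS and WARS alike every knockdown library exceeded every control (WARS log2 fold change 0.27, SE 0.05, edgeR adjusted p = 0.00021). IARS, the isoleucine enzyme of the complex, went from 377, 353 and 408 CPM to 458, 446 and 445 CPM. It rose 1.18-fold with no overlap (log2 fold change 0.24, edgeR adjusted p = 0.00078).

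The increases of EPRS, FARSB and KARS were smaller or less even. EPRS, a fused enzyme for glutamate and proline, had 225, 222 and 246 CPM in control and 263, 266 and 273 CPM in knockdown libraries (1.16-fold, edgeR adjusted p = 0.0015). FARSB, the beta subunit of the phenylalanine enzyme, had 55.2, 55.3 and 61.9 CPM in control and 62.1, 68.9 and 74.0 CPM in knockdown libraries. The highest control and the lowest knockdown library of FARSB nearly touch (1.19-fold, edgeR adjusted p = 0.0032). FARSA, its alpha subunit, did not pass, with 85.02, 92.8 and 79.9 CPM in the control libraries against 85.8, 89.0 and 90.6 CPM (log2 fold change 0.04, SE 0.05, edgeR adjusted p = 0.57). KARS, for lysine in both compartments, had 116, 118 and 126 CPM in control and 131, 135 and 136 CPM in knockdown libraries, without overlap (1.12-fold, edgeR adjusted p = 0.011).

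The enzymes for methionine, cysteine and glutamine fell. MARS (chromosome 12, 57475445 to 57517569, plus strand), which charges both initiator and elongator methionine tRNA, had 206, 218 and 244 CPM in control and 190, 186 and 190 CPM in knockdown libraries. It fell 1.18-fold, and the controls spread more widely than the knockdown libraries (log2 fold change -0.24, SE 0.05, edgeR adjusted p = 0.0013). Exons of MARS share 355 bases with DDIT3 and 519 with ARHGAP9 on the opposite strand, where fragments were not counted for either gene. DDIT3 rose, from 16.1 to 19.1 CPM (log2 fold change 0.25, edgeR adjusted p = 0.015), a call lost without control library 1 (0.0503) and without knockdown library 3 (0.15). CARS (chromosome 11, 3000922 to 3057613, minus strand) had 50.1, 47.7 and 55.6 CPM in control and 35.1, 42.5 and 40.7 CPM in knockdown libraries. It fell 1.30-fold without overlap, on a count that may be partial, as described above (log2 fold change -0.37, SE 0.07, edgeR adjusted p = 0.00029). QARS, for glutamine, had 218, 216 and 222 CPM in control and 195, 203 and 192 CPM in knockdown libraries (1.11-fold lower, log2 fold change -0.15, edgeR adjusted p = 0.011). The call of QARS was lost without knockdown library 1 (edgeR adjusted p = 0.0501) and without knockdown library 3 (0.0744).

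The other 6 cytosolic members tested, AARS, DARS, FARSA, HARS, LARS and YARS, lay between log2 fold changes of -0.11 and 0.11. AARS, for alanine, had 170, 181 and 183 CPM in control and 167, 162 and 165 CPM in knockdown libraries (edgeR adjusted p = 0.068). DARS, for aspartate, had 137, 139 and 141 CPM against 148, 153 and 148 CPM (edgeR adjusted p = 0.070), and HARS, for histidine, 90.9, 96.3 and 103 CPM against 105, 104 and 104 CPM (edgeR adjusted p = 0.099). In all 3 the groups did not overlap although the test was not passed. AARS passed without control library 1 (edgeR adjusted p = 0.029) and HARS without control library 3 (0.019). LARS, for leucine, had 199, 204 and 218 CPM in the controls against 204, 205 and 211 CPM (SE of the log2 fold change 0.05). YARS, for tyrosine, was at 230 ± 8.52 and 243 ± 5.58 CPM (n = 3 each, edgeR adjusted p = 0.19). Groups did not overlap in 16 of the 19 cytosolic and 8 of the 14 mitochondrial members, against 47.6% of all genes tested.

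Grouped by complex, class and known regulation, the cytosolic members moved as follows, where 18.9% of all genes tested were higher and 18.3% lower. Of the 8 enzymes of the multisynthetase complex, RARS, IARS, EPRS and KARS rose, MARS and QARS fell, and DARS and LARS did not pass (50% and 25.0%, median log2 fold change 0.13). All 3 scaffold genes rose: AIMP2 1.24-fold (edgeR adjusted p = 0.00031), AIMP1 1.199-fold (0.00033) and EEF1E1 1.27-fold (0.0088). The groups of EEF1E1 overlapped, and its call was lost without knockdown library 3 (edgeR adjusted p = 0.058) and with the trends of GC content and exon length removed (0.064), which left 2 scaffold genes higher. Outside the complex 6 of 11 tested rose and 1 fell (54.5% and 9.09%, median 0.25). Of the class I enzymes 4 of 9 tested rose and 3 fell (44.4% and 33.3%), and of the class II enzymes 6 of 10 rose (60.0%). EPRS was counted under class I for its glutamate part, and its proline part is of class II. With all libraries and TMM scaling 0 class II enzymes fell by edgeR, as by DESeq2, and 1, AARS, was lower at an unadjusted p under 0.05. AARS passed with upper quartile scaling (edgeR adjusted p = 0.026) and without control library 1 (0.029). Of 12 synthetases listed as known ATF4 targets, 7 rose and 2 fell (58.3% and 16.7%, median 0.23), and of the 7 others tested 3 rose and 1 fell (42.9% and 14.3%, median 0.11). None of these groupings was tested against another.

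Among mitochondrial synthetases NARS2, YARS2 and WARS2 rose and CARS2 fell. NARS2, for asparagine (chromosome 11, 78435968 to 78574874, minus strand), had 14.5, 15.1 and 15.8 CPM in control and 18.8, 18.4 and 18.8 CPM in knockdown libraries. It rose 1.23-fold with a clear gap between the groups (log2 fold change 0.30, SE 0.07, edgeR adjusted p = 0.0018). YARS2, for tyrosine (chromosome 12, 32727490 to 32755897, minus strand), had 18.4, 16.9 and 16.6 CPM in control and 19.99, 21.4 and 20.2 CPM in knockdown libraries. It rose 1.18-fold, without overlap (log2 fold change 0.24, SE 0.07, edgeR adjusted p = 0.0083). WARS2, for tryptophan, had 25.9, 24.3 and 24.7 CPM in control and 28.7, 28.2 and 26.7 CPM in knockdown libraries (1.12-fold, log2 fold change 0.16, edgeR adjusted p = 0.048). That call was lost by DESeq2 (adjusted p = 0.087). By edgeR the call of WARS2 was lost without control library 2 (adjusted p = 0.15) or 3 (0.090) and without knockdown library 1 (0.15) or 2 (0.093). CARS2, for cysteine (chromosome 13, 110641412 to 110713603, minus strand), had 71.4, 79.3 and 78.9 CPM in control and 67.5, 64.2 and 68.4 CPM in knockdown libraries. CARS2 fell 1.15-fold (log2 fold change -0.20, SE 0.05, edgeR adjusted p = 0.0049), so that both cysteine enzymes were lower in every knockdown library than in any control.

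The other 10 mitochondrial members tested did not pass. IARS2, for isoleucine and the most abundant of them, had 203, 189 and 199 CPM in control and 188, 184 and 180 CPM in knockdown libraries (log2 fold change -0.10, edgeR adjusted p = 0.10). MARS2, for methionine, had 22.8, 22.5 and 28.4 CPM in control and 27.0, 26.4 and 29.9 CPM in knockdown libraries, and control library 3 alone overlapped the knockdown range. Without that library MARS2 passed (log2 fold change 0.30, edgeR adjusted p = 0.0016, against 0.18 and 0.094 with all libraries). PARS2, for proline, had 12.03, 10.4 and 11.6 CPM against 12.7, 12.8 and 12.5 CPM (edgeR adjusted p = 0.13). EARS2, for glutamate, had 40.0, 39.0 and 38.5 CPM against 37.1, 37.2 and 37.4 CPM (edgeR adjusted p = 0.31). HARS2, for histidine, had 26.0, 24.7 and 25.4 CPM against 24.2 CPM in each knockdown library (edgeR adjusted p = 0.41). In IARS2, PARS2, EARS2 and HARS2 the groups did not overlap. AARS2, FARS2, LARS2, RARS2 and TARS2 lay between log2 fold changes of -0.06 and 0.04, with overlapping groups.

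HARS and HARS2 start 85 bases apart on chromosome 5, in opposite directions (annotated RefSeq starts at 140691370 and 140691455), and their promoter windows share 184 bases. HARS had a log2 fold change of 0.11 and HARS2 of -0.07, and neither passed. Exons of the pair overlap by 108 bases, where fragments were not counted for either gene.

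Both compartments were also set side by side without library scaling. For 14 pairs the level of the cytosolic enzyme was divided by that of the mitochondrial enzyme for the same amino acid within each library. CARS and CARS2, although both were tested, were not paired. Levels here are TPM, that is counts per exon length scaled to the same sum in every library. In 6 of 14 pairs the ratio was higher in every knockdown library than in any control, in 1 pair it was lower, and in 7 the groups overlapped. The 50% of pairs without overlap lie near the 47.6% of single genes tested, so the count says nothing particular of the pairs, and the ratios are given as values. EPRS and FARS2 each enter 2 of the pairs. With 3 libraries against 3 the smallest two-sided exact permutation p is 0.10, so no p is given. The TARS to TARS2 ratio was 4.06, 3.92 and 4.17 in control and 5.06, 5.37 and 5.25 in knockdown libraries. The RARS to RARS2 ratio was 2.85, 2.73 and 2.81 in control and 3.82, 3.50 and 3.55 in knockdown libraries. These 2 ratios, with IARS to IARS2 (1.08 ± 0.0594 to 1.36 ± 0.0162, n = 3 each), showed the largest increases, 0.35 to 0.37 on the log2 scale. The MARS to MARS2 ratio moved the other way, from 3.89, 4.18 and 3.70 to 3.03, 3.04 and 2.74, a log2 change of -0.42. For asparagine, where both enzymes rose, the ratio was 10.6 ± 0.427 in control and 10.8 ± 0.450 in knockdown (n = 3 each), and the groups overlapped.

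**Figure D2:**
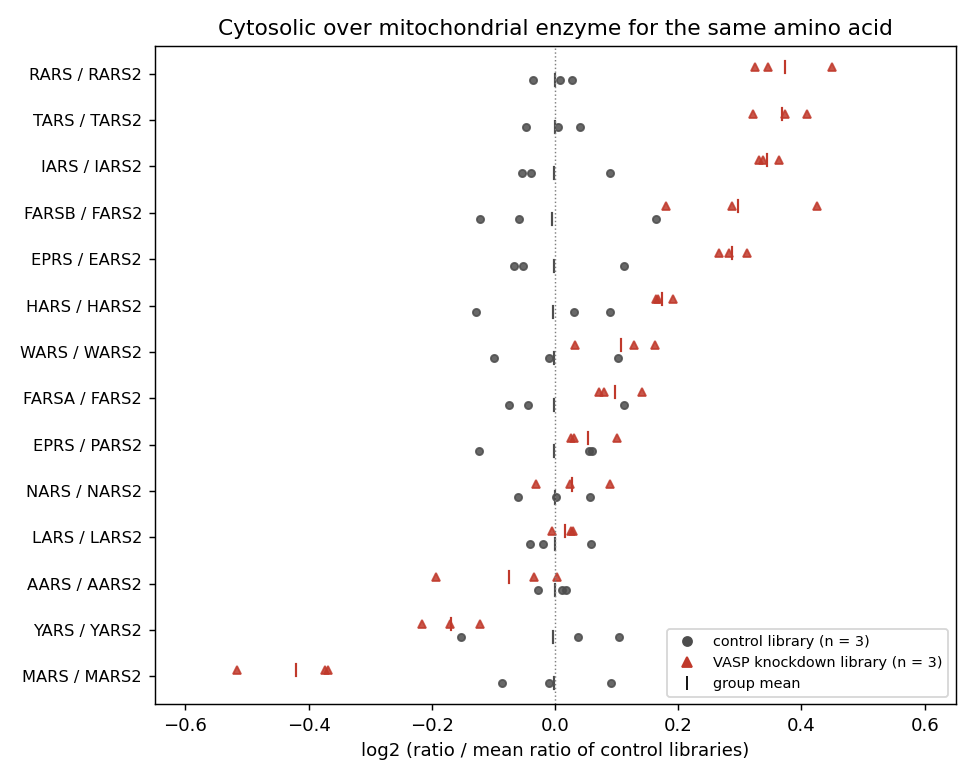
The TPM of a cytosolic synthetase over that of the mitochondrial synthetase for the same amino acid, in each library, divided by the mean ratio of the control libraries on a log2 scale (x axis), for 14 pairs; grey circles are control libraries, red triangles knockdown libraries and short bars group means. RARS, TARS and IARS shift to the right against their partners and MARS to the left, while 7 pairs overlap.

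In control libraries, cytosolic enzymes were mostly the more abundant ones. Per exon length, 18 cytosolic members, CARS left out for its length of duplicated exons, ran from 23.1 to 256 TPM with a median of 102 TPM, and the 14 mitochondrial members from 9.03 to 130 TPM with a median of 18.6 TPM. SARS (256 ± 15.1 TPM, SD, n = 3) and GARS (242 ± 18.4 TPM, SD, n = 3) led, with overlapping libraries, and both exceeded TARS (157 ± 7.18 TPM, SD, n = 3) in every library. TARS, WARS, IARS and NARS followed, with overlap between neighbours in rank among them. Every control library of TARS lay above those of IARS and NARS, and every control library of NARS above those of QARS. From QARS at 126 TPM to LARS at 69.6 TPM each member overlapped the next in rank. HARS (35.0 ± 2.88 TPM, SD, n = 3) and FARSB (23.1 ± 1.77 TPM, SD, n = 3) stood apart at the low end, and FARSB was below its partner subunit FARSA (96.2 ± 9.32 TPM, SD, n = 3). These levels depend on the merged exon length, 7528 bases in HARS, 6761 in FARSB and 2434 in FARSA. In CPM the control means were 96.7, 57.4 and 85.9. How far the merged length sets these ranks was not tested. Among mitochondrial members IARS2 (130 ± 1.99 TPM, SD, n = 3) stood far above TARS2 (38.9 ± 1.53 TPM, SD, n = 3) and RARS2 (28.6 ± 1.28 TPM, SD, n = 3). FARS2 was the lowest, at 9.03 ± 0.308 TPM (SD, n = 3). The IARS to IARS2 ratio, 1.08, was the lowest of the 14 pairs, and the highest were those of FARSA to FARS2 and NARS to NARS2, 10.6 each. Such ratios depend on the merged exon lengths too, 7401 bases in IARS and 4135 in IARS2. RPKM uses the same exon lengths as TPM, so the order of members within a library cannot differ between them. In the means over control libraries NARS2 and PARS2, at 13.1 TPM each, exchanged ranks by RPKM and no other member moved. The exchange therefore does not test the order.

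**Figure D3:**
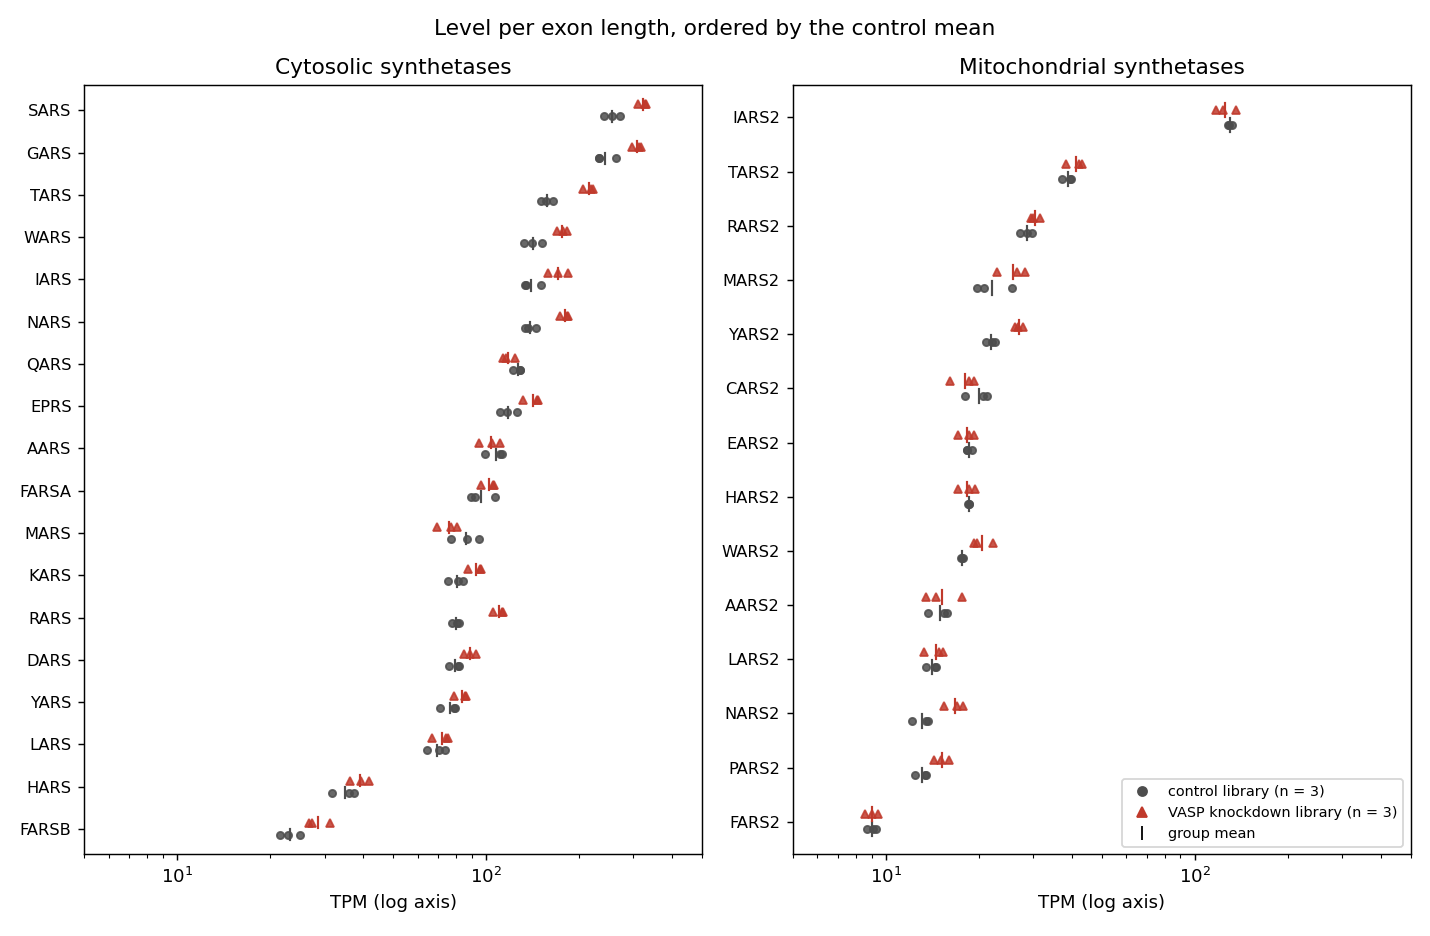
Level of each synthetase in TPM on a log axis (x axis) in 3 control libraries (grey circles) and 3 knockdown libraries (red triangles), with group means as short bars, ordered by the control mean. SARS and GARS lead the 18 cytosolic members shown at 256 and 242 TPM, and IARS2 at 130 TPM stands apart from the 13 other mitochondrial members.

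Summed over the 19 tested cytosolic members, the libraries held 3811, 3792 and 4109 CPM in control and 4311, 4470 and 4441 CPM in knockdown. Control library 3 was the highest of the controls and still below each knockdown library, and the mean was 1.13 times higher in the knockdown. Summed over the 14 mitochondrial members, the values were 631, 620 and 641 CPM in control and 623, 616 and 618 CPM in knockdown, and these overlapped. Within groups the coefficient of variation of a member had a median of 3.70% in cytosolic and 3.35% in mitochondrial members, with a highest value of 9.73% and 13.6%.

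Over all genes tested the change followed GC content, from a median of 0.18 (log2) in the decile with GC up to 39.6% to -0.24 in the decile from 61.3% upward. Its part in the members' changes was not tested beyond the fit below. The cytosolic members that rose had GC contents from 40.9% (RARS) to 50.7% (SARS), and those that fell from 53.0% (CARS) to 55.3% (QARS). Those of the 6 that did not pass spanned both ranges, from 40.6% (DARS) to 61.6% (FARSA). When trends with GC and exon length were removed from each library, 2794 of all 16207 genes tested rose and 1959 fell. Among cytosolic members 11 rose and 2 fell. Of the 10 increases 9 remained, RARS at a log2 fold change of 0.31, TARS at 0.34, NARS at 0.29, GARS at 0.30, SARS at 0.32 and WARS at 0.29. FARSB (edgeR adjusted p = 0.061) and QARS (0.22) lost the call, FARSA (log2 fold change 0.23, edgeR adjusted p = 0.00085) and HARS (0.16, 0.019) gained one, and MARS and CARS stayed lower at -0.17 and -0.29. EPRS went from 0.21 to 0.12 and IARS from 0.24 to 0.17, both still past the threshold. In the mitochondrial set CARS2 (edgeR adjusted p = 0.15) and WARS2 (0.17) lost the call, PARS2 passed upward (log2 fold change 0.24, edgeR adjusted p = 0.027) and IARS2 downward (-0.18, 0.0033). NARS2 (0.23) and YARS2 (0.28) remained higher.

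**Figure D4:**
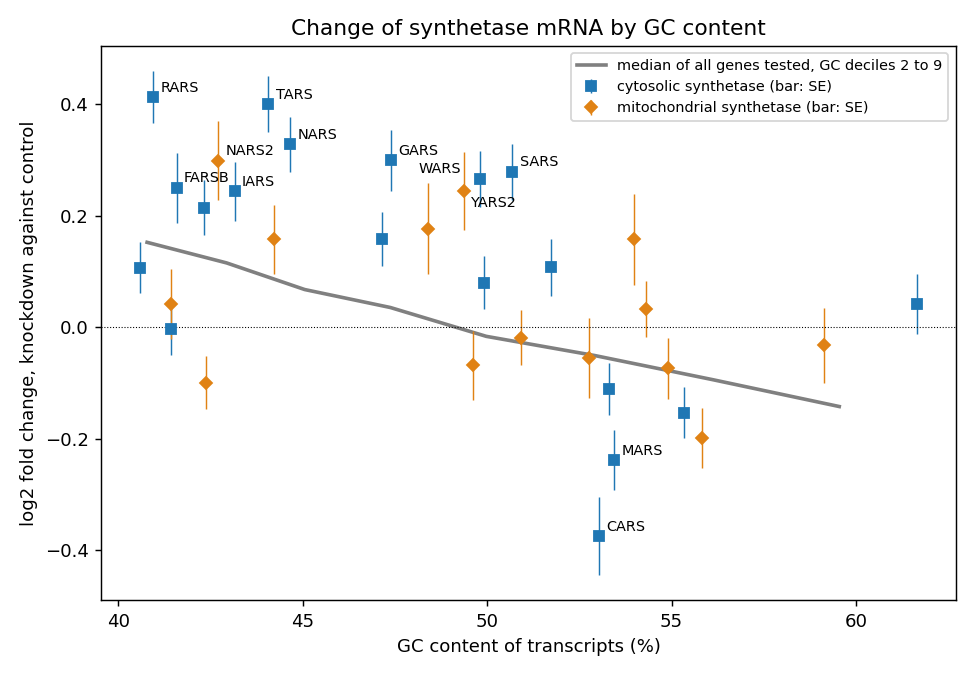
Log2 fold change of each tested synthetase (y axis, bars are the SE of the fit) against the GC content of its transcripts in percent (x axis), with the median of all genes tested as a grey line over GC deciles 2 to 9. SARS and WARS, which rose, lie above the line near 50% GC, and MARS and CARS, which fell, lie below it near 53%.

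Other genes of the pathway were read from lists named for their role. Of all genes tested, 18.9% were higher and 18.3% lower. For tRNA transcription, processing and export, 14 of 32 tested rose and 2 fell (43.8% and 6.25%, median log2 fold change 0.12). TSEN15, a subunit of the tRNA splicing endonuclease, rose 1.40-fold from 90.9 to 127 CPM (edgeR adjusted p = 4.9e-06). POLR3F, a subunit of RNA polymerase III, rose 1.36-fold, GTF3C3, of its initiation factor TFIIIC, 1.28-fold, and XPOT, the tRNA export receptor, 1.198-fold. Leaving out a library gave 9 to 13 higher and 1 to 3 lower in that list, the 9 without control library 2. Of 29 cytosolic tRNA modification genes 9 rose and 1 fell (31.0% and 3.45%, median 0.06), led by the methyltransferase subunit TRMT6 (1.35-fold, edgeR adjusted p = 3.5e-06), ALKBH8 (1.35-fold), TRMT11 (1.33-fold) and ELP3 (1.22-fold). Leaving out a library gave 8 to 10 higher and 0 to 4 lower there, the 4 without control library 1. Of 24 genes of mitochondrial tRNA processing, amidation and translation factors 10 rose and 1 fell (41.7% and 4.17%, median 0.12), among them the initiation factor MTIF2 (1.34-fold, edgeR adjusted p = 8.2e-06), TRMT10C of mitochondrial RNase P (1.30-fold), the elongation factor GFM1 (1.24-fold) and the release factor MTRF1L (1.31-fold). Leaving out a library gave 7 to 11 higher and 0 to 1 lower in that list, the 7 without control library 2. With the GC and length trends removed, 15, 10 and 8 genes of these 3 lists were higher by edgeR and 0, 1 and 0 lower. Of all 16207 genes tested in that fit, 2794 were higher and 1959 lower. Elongation factors of the cytoplasm had 4 of 8 tested, with EEF2 1.21-fold lower (edgeR adjusted p = 0.00017) and EEF1A2 1.24-fold higher (0.0037). PSTK, a kinase of selenocysteine synthesis outside the rule, passed narrowly by edgeR (log2 fold change 0.23, adjusted p = 0.046). It did not pass by DESeq2 (adjusted p = 0.095), and its edgeR call was lost without any of 5 single libraries.

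Genes of the amino acid response other than synthetases moved both ways. Of 29 tested, 10 rose and 4 fell (34.5% and 13.8%, median log2 fold change 0.03). With the GC and length trends removed, 11 were higher and 2 lower, with a median of 0.11. The lower calls of DDIT4 and CEBPB were gone in that fit (edgeR adjusted p = 0.67 and 0.42). So was the higher call of PSAT1 (log2 fold change 0.15, edgeR adjusted p = 0.072), and these 3 genes are named for this loss. ATF4 mRNA did not pass (403 to 426 CPM, log2 fold change 0.08, edgeR adjusted p = 0.23), and neither did ASNS, asparagine synthetase, which was at 10.4 CPM in both groups (log2 fold change -0.01, SE 0.10). CHAC1, which degrades glutathione, rose 1.37-fold (edgeR adjusted p = 1.9e-06) and the amino acid transporter SLC38A2 1.22-fold. ALDH18A1 and PYCR1, both of proline synthesis, fell 1.40-fold (edgeR adjusted p = 1.7e-07) and 1.36-fold (1.5e-06). A list of 13 genes covers amino acid sensing and the control of eIF2 alpha. In it 4 rose and 2 fell (30.8% and 15.4%, against 18.9% and 18.3% of all genes tested). RRAGD, a Rag GTPase that recruits mTORC1 to lysosomes, fell 2.09-fold from 41.4 to 19.8 CPM (log2 fold change -1.06, SE 0.06, edgeR adjusted p = 4.9e-12), and RRAGA fell 1.29-fold. PPP1R15B, which directs dephosphorylation of eIF2 alpha, rose 1.25-fold, and EIF2S1, eIF2 alpha itself, rose 1.23-fold. EIF2AK4, the sensor kinase of uncharged tRNA (GCN2), did not pass (edgeR adjusted p = 0.40).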

How the data were processed

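RNA of 3 control and 3 VASP knockdown libraries was sequenced, and the authors deposited raw counts, 1 value per gene symbol and library. Per the file headers, featureCounts 1.6.4 counted read pairs over exons of GENCODE release 32, patches and alternate sequences included, with no strand or multi-mapping option. The submitters' processing notes name Trim Galore 0.6.4, STAR 2.7.1a and hg38. The 6 columns held whole numbers only. Headings of the control columns all extend the title of 1 control sample, so they were mapped to the group only and numbered in table order.

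Genes were filtered with filterByExpr, scaled by TMM and compared in edgeR 4.0.16 (R 4.3.3) by its quasi-likelihood test, two-sided. Benjamini-Hochberg adjustment covered all 16633 genes, with a threshold of 0.05; DESeq2 1.42.0 was an alternative. The procedure was tested on simulated data. CPM are TMM-scaled, the SE is the log2 fold change divided by the square root of F, and errors are SD over n = 3. TPM used the deposited exon length. GC content came from GENCODE release 29 transcripts by symbol. A spline with 5 degrees of freedom in GC content and in length was removed per library in the correction. Promoters came from RefSeq, and 30 of 36 members matched.

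Named were all members and, in each pathway list, up to 4 genes of smallest p past the threshold. ATF4, ASNS, EIF2AK4, DDIT3, DDIT4, CEBPB and PSAT1 were named as well, chosen after their values were seen. Members, lists and tests were chosen with earlier results of these data known. A gene of the pathway lists is not reported here.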

Additional observations from a re-analysis of the deposited data

How the results depend on the processing

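Leaving out 1 library gave 10 to 11 cytosolic members higher and 2 to 4 lower, and 2 to 3 mitochondrial members higher and 1 lower. All 10 cytosolic increases remained under each of these 6 settings, without the filter, with at least 1 CPM required in 3 libraries, with upper quartile scaling, with library totals only and with DESeq2. With upper quartile scaling 2 mitochondrial members were higher and 2 lower, against 3 and 1 by TMM; IARS2 gained and WARS2 lost the call, and the cause was not tested. With changes up to 1.2-fold as the null, 324 genes were higher and 629 lower. Under that null edgeR called 2 cytosolic members higher and 0 lower, and 0 mitochondrial members in each direction (at an unadjusted p under 0.05, 3, 1, 0 and 0; DESeq2 without that null 10, 3, 2 and 1). The GC content and length correction left 1959 genes lower and 2794 higher; it tests 16207 genes. No called member reversed under any setting run. No paired analysis was possible because the control columns carry no number that ties them to a control sample. The lowest of the 33 tested members, PARS2, had 303 or more counts per library. At a log2 fold change of 0.16 PARS2 (SE 0.08) did not pass, while KARS, with 3394 or more counts, passed at 0.16 (SE 0.05). Whether depth limited the calls of members with few counts was not tested.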
